A study of Mus musculus with 7 samples.

Results

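ATP-binding cassette (ABC) transporter genes were described across 7 one-colour Affymetrix arrays of mouse intestine. The members were all genes whose symbol in the platform annotation begins with Abc, a subfamily letter from a to g and a number, which gave 48 of the 19938 genes measured. They fell into 16 genes of subfamily ABCA, 9 of ABCB, 10 of ABCC, 3 of ABCD, 1 of ABCE, 3 of ABCF and 6 of ABCG. Related genes listed under other symbols (Cftr, Tap1 and Tap2) were kept apart. All mice were C57Bl6/129Sv and 3 months of age. DSS-treated colon gave 2 arrays from Atg4b knockout (KO) mice and 1 from a wild-type (WT) mouse. These animals had taken dextran sulfate sodium, which injures the colonic lining, by mouth for 7 days and then water for 3 days. Control ileum gave 1 KO and 1 WT array, and control colon likewise 1 KO and 1 WT array, all without DSS. Atg4b encodes a protease that processes LC3 and GABARAP proteins during autophagosome formation. The samples were bulk intestinal tissue, so that fewer cells of a type and less RNA per cell cannot be told apart.

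ABC proteins bind and hydrolyse ATP. Most use that energy to move lipids, bile salts, conjugated metabolites, peptides or drugs across a membrane, while members of ABCE and ABCF have no membrane-spanning part and act at the ribosome. In the gut, pumps on the luminal face of epithelial cells (the products of Abcb1a, Abcg2 and Abcc2) return foreign compounds and conjugates to the lumen, and the pair formed by Abcg5 and Abcg8 returns plant sterols and cholesterol. Pumps on the opposite face, such as the product of Abcc3, pass conjugates towards the blood.

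The deposited values are linear intensities, given here as log2, and a difference of 1 log2 unit is a 2-fold difference. The array medians lay between 121.4 and 126.45 intensity units. Precision is set by how few arrays there are: 5 of the 6 groups held 1 array. Groups that differ in genotype or in DSS treatment came from different mice. The labels do not say whether ileum and control colon of the same genotype came from the same mouse. The p-values measure the spread between these arrays. That spread comes from the 2 KO DSS arrays and from disagreement of the KO minus WT difference between conditions. Standard errors and p-values therefore do not measure the spread of replicates within each group. Atg4b was at 5.39 to 5.45 on the 4 KO arrays and at 7.35 to 7.72 on the 3 WT arrays. Xist, a transcript of the female inactive X chromosome, was at 12.16 to 12.55 on the 3 DSS arrays and at 5.19 to 5.52 on the 4 control arrays, so DSS and the sex shown by this marker cannot be told apart. The marker went against the labelled sex on the WT arrays. The labelled tissues matched their markers: sucrase-isomaltase Sis was at 13.23 in KO and 12.71 in WT ileum and at 4.82 in KO and 4.67 in WT control colon. The water channel Aqp8 was at 5.75 in KO and 6.16 in WT ileum and at 11.83 in KO and 12.05 in WT control colon.

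Within the family the spread over arrays differed widely between genes. The range from the lowest to the highest array exceeded 1 log2 unit in 16 of 48 members (33.3%), against 18.0% of all genes, and the median range was 0.77 against 0.52. Abcg5, Abcc2 and Abcg8 had the widest ranges among the members, 4.85, 4.75 and 4.23. Abcc8, a regulatory subunit of potassium channels in insulin-secreting cells, had the narrowest at 0.10, between 6.81 and 6.91. On every array 6 members lay below the array's lower quartile (Abca4, Abca6, Abca15, Abca16, Abcb5 and Abcb11), with the bile salt export pump of the liver, Abcb11, at 4.64 to 5.04. At such low signals a fold change can be understated. In all, 16 of 48 members passed a test in at least 1 comparison described below and 32 passed in none; 4 of these 32 had a range over 1 log2 unit (Abca12, Abcc9, Abcc3 and Abca13).

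**Figure D1:**
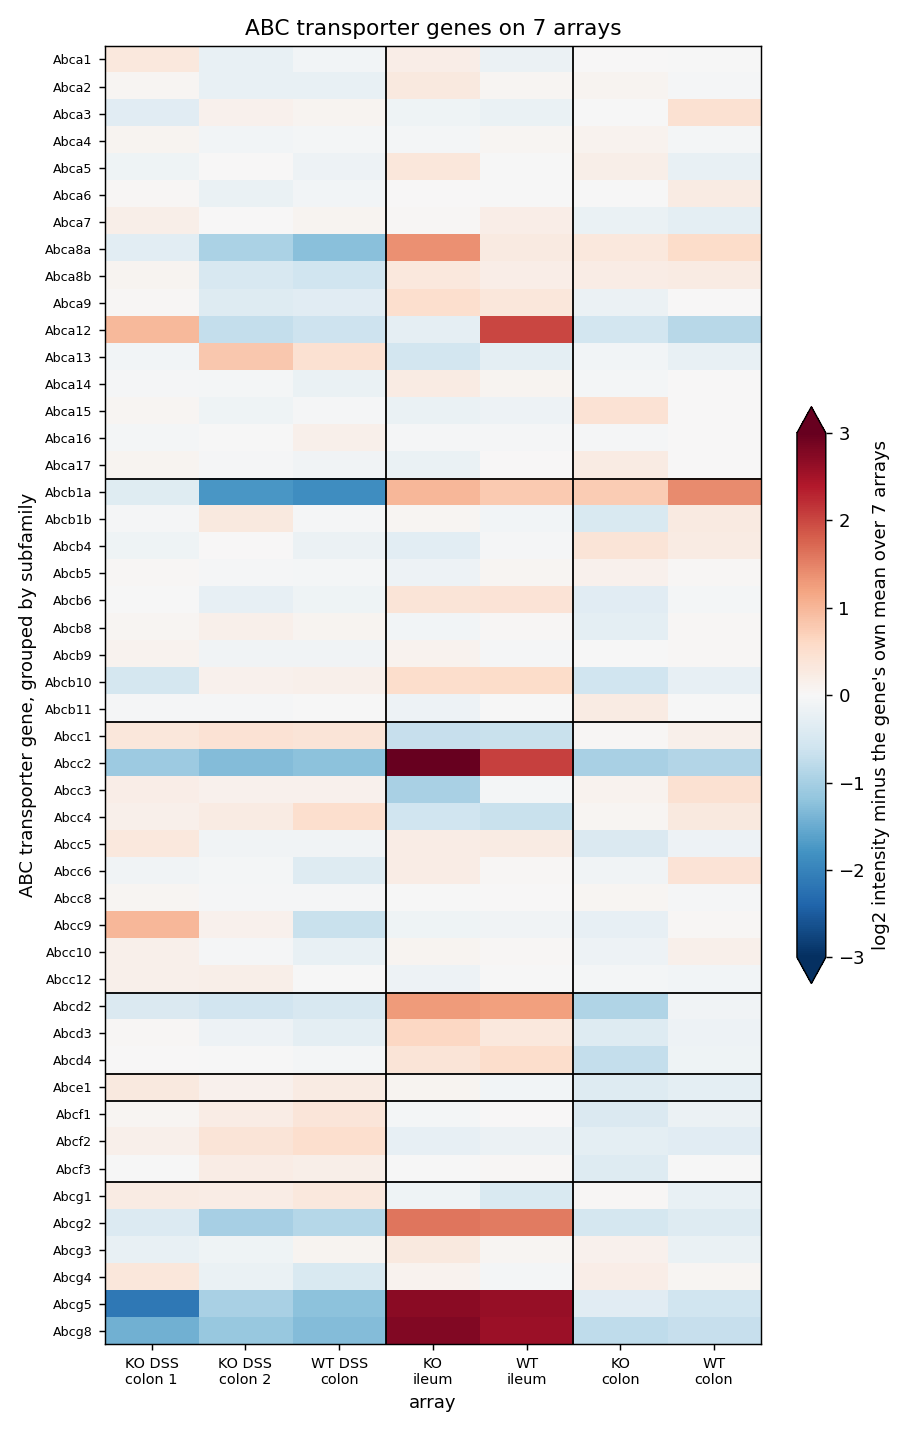
Each row is 1 of the 48 ABC transporter genes and each column 1 array, with colour giving the log2 intensity minus that gene's own mean over the 7 arrays. The scale ends at 3 in each direction, and Abcc2 in KO ileum lies beyond it. Abcg5, Abcg8, Abcc2, Abcg2 and Abcd2 stand out in both ileum arrays, and Abcb1a is low in DSS colon.

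Ileum and colon were compared in the control mice. Abcg5, Abcg8, Abcg2, Abcc2, Abcd2, Abcd3, Abcd4, Abcb6 and Abcb10 were higher in ileum, while Abcc1 and Abcc4 were lower. In limma, with p-values adjusted over all 19938 genes, 9 of 48 members were higher and 2 lower in ileum than in colon, together 22.9%, against 9.16% of all genes called in either direction (5.94% higher and 3.22% lower). Over all genes the split was 1184 higher and 642 lower, and 1074 and 928 after quantile normalization. The median difference of the members was 0.08 and that of all genes -0.02. Leaving out the KO ileum or the KO control colon gave 5 calls, and leaving out the WT ileum or the WT control colon gave 6. Abcg8, Abcc2 and Abcg2 passed in each of these, whereas Abcb6, Abcb10 and Abcc1 passed in none of them. Of these 4 fits, Abcd3 and Abcd4 passed only in the one without the WT control colon.

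Abcg5 and Abcg8 encode the 2 subunits of the sterol exporter and lie head to head on chromosome 17. Abcg8 was at 10.48 in KO and 10.26 in WT ileum, against 6.93 in KO and 7.01 in WT control colon. Abcg5 was at 11.57 in KO and 11.49 in WT ileum, against 8.53 in KO and 8.27 in WT control colon. In both genes the ileum arrays lay far above the colon arrays and close to each other. Abcg8 was higher in ileum by 3.40 ± 0.14 log2 units (± gives the standard error of the fit throughout), a 10.6-fold difference (adjusted p = 7.43e-05), and Abcg5 by 3.13 ± 0.37 (adjusted p = 0.00370), a call that was lost without the WT control colon.

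Because these genes differed together, the whole stretch between their start sites is shown. In RefSeq (GRCm38.p6) the starts are separated by 109 bases, chr17:84683012-84683120, read here on the strand of Abcg8, with Abcg5 running the other way. Capitals mark the letters AGATAA on either strand, which GATA factors bind:
between Abcg5 and Abcg8: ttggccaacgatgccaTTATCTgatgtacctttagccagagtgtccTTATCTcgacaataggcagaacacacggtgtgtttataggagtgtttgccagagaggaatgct
This motif occurred at 2 places, beginning 93 and 63 bases before the end of the stretch next to Abcg8. Of 32817 RefSeq promoter windows read over the same length, 3.98% hold it at least once on either strand. The letters TATAAA occurred once on the reverse strand, overlapping neither, and are held by 5.91% of windows. A match is a description of these letters and not evidence of binding.

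Abcc2, the exporter of glutathione and glucuronide conjugates on the luminal membrane, was at 10.07 in KO and 8.68 in WT ileum, against 5.65 in KO and 5.75 in WT control colon. Both colon values lay below the lower quartile on their arrays, so the difference may be understated. It was 3.67 ± 0.35 log2 units, 12.7-fold (adjusted p = 0.00180). The ileum arrays themselves were 1.40 apart, KO above WT. The 250 bases before its RefSeq start, chr19:43782058-43782307 on the plus strand (GRCm38.p6), are given because Abcc2 had the largest fitted tissue difference of the family. Capitals mark AGGTCA, a hexamer bound by nuclear receptors, the GC box GGGCGG and the CCAAT box, on either strand:
Abcc2: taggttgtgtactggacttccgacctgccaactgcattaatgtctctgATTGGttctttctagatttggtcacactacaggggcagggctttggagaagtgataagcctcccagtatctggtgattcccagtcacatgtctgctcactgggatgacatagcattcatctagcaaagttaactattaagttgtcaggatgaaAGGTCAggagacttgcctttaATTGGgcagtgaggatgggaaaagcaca
The stretch held AGGTCA once, beginning 49 bases before the start, and CCAAT at 2 places, beginning 202 and 28 bases before it, none overlapping. Of all windows of this length 14.0% hold AGGTCA and 33.8% hold CCAAT.

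Abcg2, the breast cancer resistance protein, was at 10.80 in KO and 10.77 in WT ileum, against 8.68 in KO and 8.80 in WT control colon. It was higher in ileum by 2.04 ± 0.20 (adjusted p = 0.00192), with the arrays of each tissue within 0.12 of each other. Abcb1a, the main intestinal P-glycoprotein gene in mouse, did not follow it. Its values were 11.49 in KO and 11.27 in WT ileum, against 11.25 in KO and 11.90 in WT control colon, and the arrays of both tissues overlapped (-0.19 ± 0.50, adjusted p = 0.864).

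All 3 members of ABCD were higher in ileum. Abcd2 and Abcd3 encode peroxisomal importers of fatty acids, and Abcd4 acts in the handling of vitamin B12 in lysosomes. Abcd2 was at 8.03 in KO and 7.98 in WT ileum, against 5.85 in KO and 6.65 in WT control colon, a difference of 1.76 ± 0.22 (adjusted p = 0.00453). The KO colon array was the lowest. Abcd4 was at 8.30 in KO and 8.43 in WT ileum, against 7.20 in KO and 7.77 in WT control colon (0.88 ± 0.17, adjusted p = 0.0245). Abcd3 was at 11.001 in KO and 10.70 in WT ileum, against 9.99 in KO and 10.22 in WT control colon (0.75 ± 0.16, adjusted p = 0.0364). The ileum arrays lay above both control colon arrays in each of the 3 genes. The arrays of the 2 tissues also did not overlap in members that were not called, Abcc3 and Abca7 among them. How often this held over all genes was not counted. The Abcd3 call was also lost after quantile normalization (adjusted p = 0.0501) and without KO DSS replicate 2 or the WT DSS array, and the Abcd2 call without the KO ileum (adjusted p = 0.0522). Of 6 measured peroxisomal partners of this subfamily, 4 were higher in ileum, the chaperone Pex19 by 0.89 ± 0.14 and the oxidation enzymes Hsd17b4 (0.96 ± 0.19), Ehhadh (0.92 ± 0.18) and Acaa1a (0.62 ± 0.13). None was lower.

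The mitochondrial transporter Abcb10, which takes part in haem synthesis, was at 8.29 in KO and 8.33 in WT ileum, against 7.18 in KO and 7.53 in WT control colon (0.96 ± 0.22, adjusted p = 0.0459). Abcb6, a porphyrin transporter, was at 8.43 in KO and 8.45 in WT ileum, against 7.70 in KO and 7.99 in WT control colon (0.59 ± 0.14, adjusted p = 0.0466). Both were close to the threshold of 0.05. The Abcb10 call was lost after quantile normalization (adjusted p = 0.0751), after centring on the median (adjusted p = 0.0566) and without the WT DSS array. The Abcb6 call was lost with a variance trend and robust fit (adjusted p = 0.0634) and without KO DSS replicate 2 or the WT DSS array. In DSS colon Abcb10 was at 7.24 and 7.90 in KO and 7.91 in WT. Abcb6 was at 8.04 and 7.81 in KO DSS and 7.91 in WT DSS colon. Of 6 measured genes of iron-sulphur cluster and haem synthesis, 1 was higher in ileum, the mitochondrial iron importer Slc25a37 (1.73 ± 0.15).

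Abcc1 and Abcc4, exporters of conjugates and of cyclic nucleotides found mostly on the basal side of epithelia, were lower in ileum. Abcc1 was at 8.19 in KO and 8.20 in WT ileum, against 8.91 in KO and 9.04 in WT control colon (-0.78 ± 0.11, adjusted p = 0.00723). Abcc4 was at 7.74 in KO and 7.68 in WT ileum, against 8.39 in KO and 8.62 in WT control colon (-0.80 ± 0.13, adjusted p = 0.0128). In both genes every ileum array was below every colon array, DSS colon included. The Abcc4 call was lost without the WT ileum, the KO control colon or the WT control colon. Abcc3 stood at -0.79 ± 0.23 and did not pass (adjusted p = 0.0944), with 9.31 in KO and 10.25 in WT ileum, against 10.41 in KO and 10.74 in WT control colon. It passed without the WT ileum (-1.20) and when the WT DSS array was left out (-0.79).

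The 16 ABCA members gave no call between the tissues, with differences from -0.40 to 1.55 and a median of 0.03. Abca1 was at 8.44 in KO and 8.05 in WT ileum, against 8.24 in KO and 8.21 in WT control colon (0.02 ± 0.19, adjusted p = 0.971). Abcg1, its partner in cholesterol efflux, was at 7.68 in KO and 7.35 in WT ileum, against 7.83 in KO and 7.59 in WT control colon (-0.20 ± 0.14, adjusted p = 0.476). In both genes the arrays of the tissues overlapped. ABCE and ABCF, 4 members together, gave no call either.

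**Figure D2:**
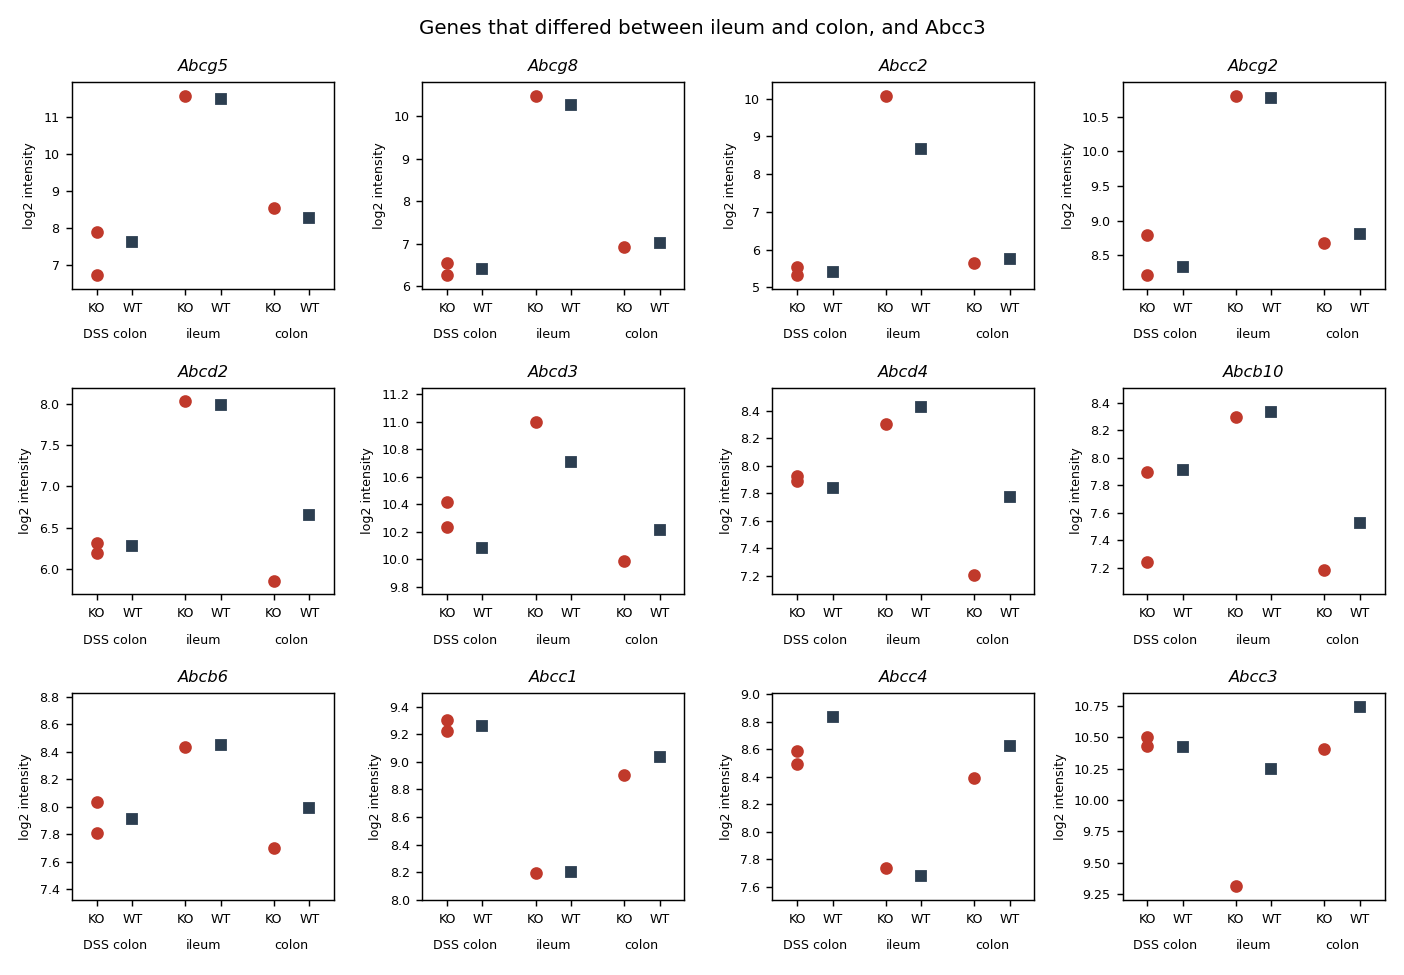
Points give the log2 intensity of each array for the 11 genes called between control ileum and control colon and for Abcc3, which was not called; red circles are KO and dark squares WT, and axes do not start at 0. Abcg5, Abcg8, Abcc2, Abcg2, Abcd2, Abcd3, Abcd4, Abcb6 and Abcb10 have both ileum points above all colon points. Abcc1, Abcc4 and Abcc3 have them below.

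The genes around these transporters differed as well. Of 7 genes of bile acid uptake and binding, 6 were higher in ileum, led by the binding protein Fabp6 (7.34 ± 0.16), the basal exporter subunits Slc51a (6.10 ± 0.26) and Slc51b (4.24 ± 0.21) and the uptake carrier Slc10a2 (5.85 ± 0.29). Of 13 genes of sterol absorption and lipoproteins, 6 were higher and 2 lower. The cholesterol importer Npc1l1, which works against Abcg5 and Abcg8, was higher by 5.91 ± 0.11, Apoa1 by 6.54 ± 0.13, the lipid loading protein Mttp by 4.95 ± 0.13 and Apob by 2.97 ± 0.24. The 2 lower genes were Npc2, a lysosomal cholesterol carrier (-0.88 ± 0.15), and Mylip, which marks the LDL receptor for breakdown (-0.61 ± 0.13). Of 14 receptors and regulators of transporter genes, 5 were higher and 1 lower. The bile acid receptor Nr1h4 was higher by 1.97 ± 0.18, its target Nr0b2 by 1.51 ± 0.17, the fatty acid receptor Ppara by 1.45 ± 0.16 and the shared partner Rxra by 1.18 ± 0.16, while Pparg was lower (-1.01 ± 0.18). Of 11 drug-metabolising enzymes 1 was higher, Cyp3a25 (4.45 ± 0.23), and 2 lower, Sult1a1 (-3.75 ± 0.18) and Gstm1 (-1.64 ± 0.30). Of the 3 ABC genes under other symbols, Tap1, a peptide transporter of antigen presentation, was higher (1.35 ± 0.15), and Cftr, the chloride channel, stood at -0.16 ± 0.27. In limma 7 of 8 markers of small intestinal enterocytes passed as higher in ileum and 6 of 8 of colonocytes as lower. Markers of other cells passed as higher in ileum too, 3 of 5 of adipocytes, 3 of 4 of T cells and 3 of 8 of macrophages. The part that cell makeup plays in the transporter differences was not tested.

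DSS colon was then compared with control colon. The P-glycoprotein gene Abcb1a fell, as did Abca8a and the sterol exporter subunit Abcg8, while Abce1, Abcf1 and Abcf2, which act at the ribosome, rose. Together 6 of 48 members passed in limma, 12.5%, close to the 10.6% of all genes called in either direction. The members split into 3 higher and 3 lower, against 7.2% of all genes higher and 3.43% lower. Over all genes the split was 1436 higher and 684 lower, but 1200 and 1112 after quantile normalization and 1159 and 961 after centring on the median. The median of the members was -0.05, with 21 above and 27 below 0, and that of all genes was -0.01. None of the 10 ABCC and 3 ABCD members passed in limma, and of each of these subfamilies 1 gene had an unadjusted p under 0.05, Abcc1 (0.30 ± 0.10, adjusted p = 0.113) and Abcd4 (0.43 ± 0.16, adjusted p = 0.139). No member passed once the WT control colon, the KO control colon, KO DSS replicate 2 or the WT DSS array was left out, and 12 passed once KO DSS replicate 1 was. Those 12 included the same 6 and, in addition, Abca13 (0.78), Abcb10 (0.55), Abca8b (-0.77), Abcg2 (-0.47), Abcg4 (-0.44) and Abcg5 (-0.64).

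**Figure D3:**
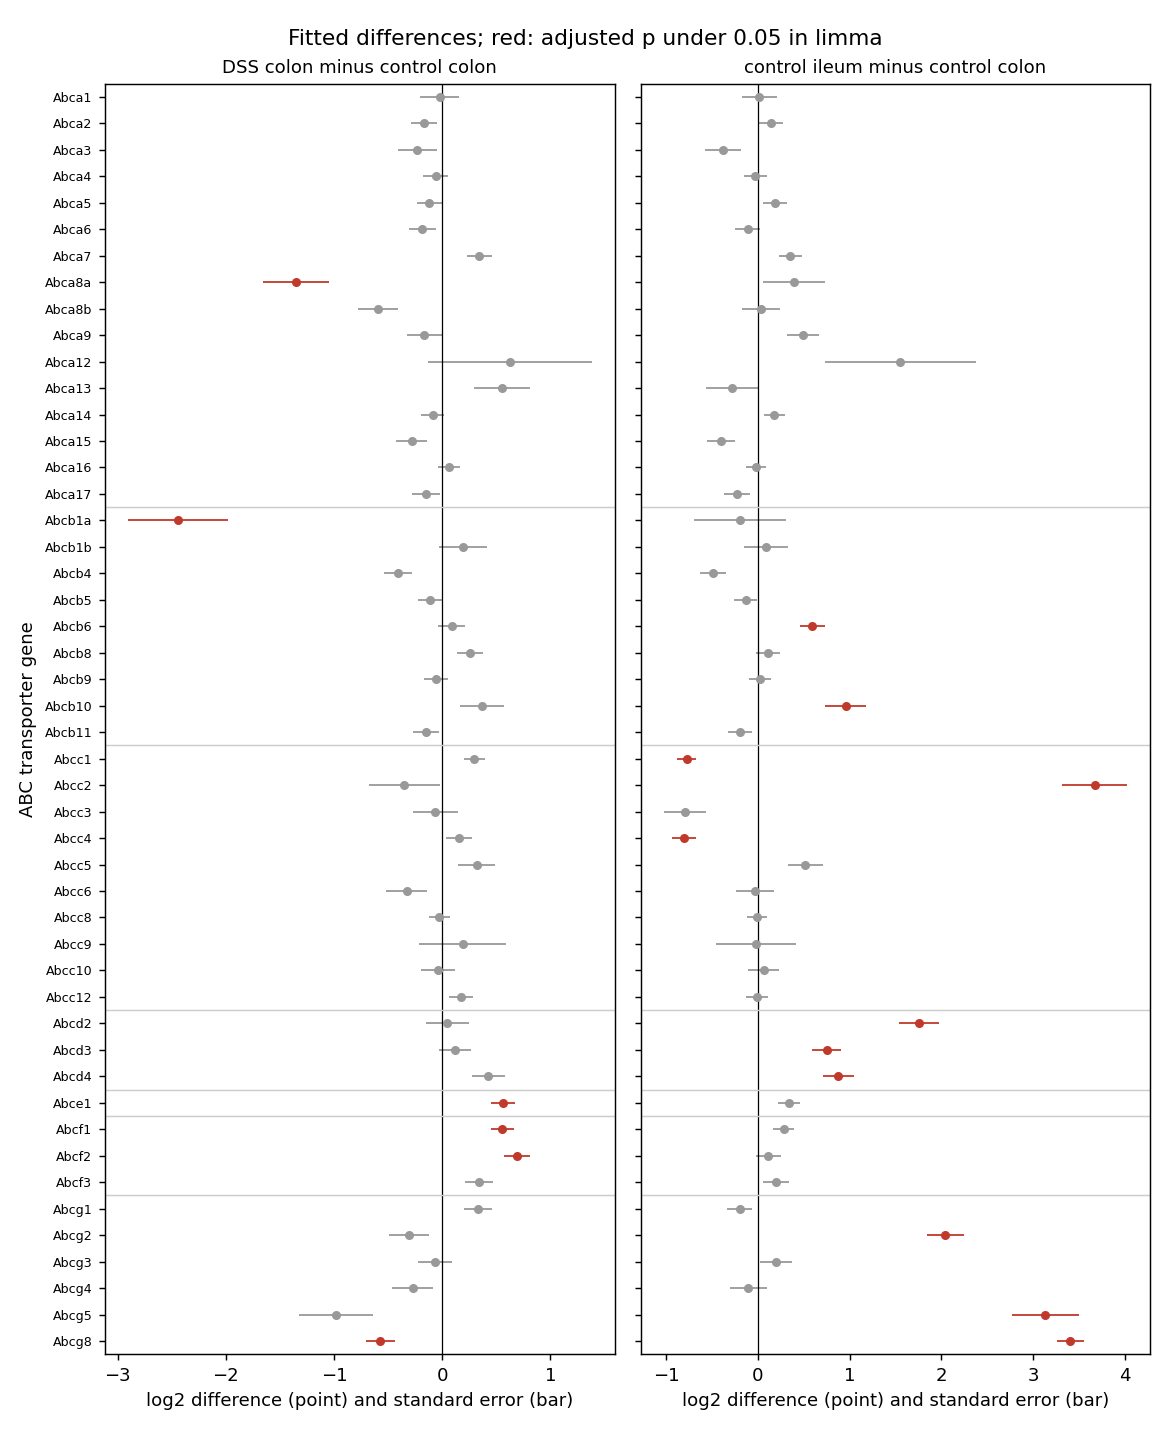
Points give the fitted log2 difference of each of the 48 genes and bars its standard error, for DSS colon minus control colon (left) and control ileum minus control colon (right). Red points passed an adjusted p of 0.05 in limma: 6 genes on the left, with Abcb1a farthest below 0, and 11 on the right, with Abcc2, Abcg8 and Abcg5 farthest above it.

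Abcb1a was at 10.12 and 8.75 on the 2 KO DSS arrays and 8.63 on the WT DSS array, against 11.25 in KO and 11.90 in WT control colon. All DSS values were below both controls, and KO replicate 1 lay 1.38 above KO replicate 2. The fitted difference was -2.44 ± 0.46 log2 units, a 5.43-fold lower level (adjusted p = 0.0252). In single arrays the difference was -1.12 and -2.50 in KO and -3.28 in WT. It kept its sign when each array was left out in turn, between -1.89 and -3.11, and was not called when either control colon array, the WT DSS array or KO DSS replicate 2 was dropped. With a variance trend and robust fit its adjusted p was 0.0606.

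Its close relative Abcb1b, the other mouse P-glycoprotein gene and its neighbour on chromosome 5, did not pass. It was at 6.20 and 6.52 on the KO DSS arrays and 6.19 on the WT DSS array, against 5.77 in KO and 6.49 in WT control colon. The groups overlapped, and the difference was 0.19 ± 0.22 (adjusted p = 0.663). Abcb4, the third gene of this run and a phospholipid exporter of the liver, stood at -0.41 ± 0.13 (adjusted p = 0.109). How far probes of such similar genes bind each other's RNA was not tested. The 250 bases before the starts of both P-glycoprotein genes are shown side by side, since the genes differed in their values here, from chr5:8566841-8567090 and chr5:8797897-8798146 on the plus strand (GRCm38.p6). Capitals again mark the 3 motifs shown for Abcc2, on either strand:
Abcb1a: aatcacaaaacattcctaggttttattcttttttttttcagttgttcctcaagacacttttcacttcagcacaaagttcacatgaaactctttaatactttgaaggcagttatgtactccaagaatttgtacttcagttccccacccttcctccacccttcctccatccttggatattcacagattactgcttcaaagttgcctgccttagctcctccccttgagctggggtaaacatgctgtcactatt
Abcb1b: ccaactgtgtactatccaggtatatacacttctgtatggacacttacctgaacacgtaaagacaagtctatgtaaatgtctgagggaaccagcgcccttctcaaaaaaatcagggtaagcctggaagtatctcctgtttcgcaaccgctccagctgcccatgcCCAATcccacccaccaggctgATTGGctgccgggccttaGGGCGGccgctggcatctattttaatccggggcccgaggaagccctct
Abcb1b held GGGCGG once, beginning 48 bases before the start, and CCAAT at 2 places, 87 and 66 bases before it. Abcb1a held neither, and AGGTCA was in neither window. Of all windows of this length 32.7% hold GGGCGG. No match says only that these letters are not in these windows.

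Abca8a, an ABCA lipid transporter gene, was at 6.44 and 5.80 on the KO DSS arrays and 5.51 on the WT DSS array, against 7.07 in KO and 7.30 in WT control colon. All DSS values were below both controls. The difference was -1.35 ± 0.31 (adjusted p = 0.0422), and it was -0.88 and did not pass without the WT control colon. It was -1.93 and did not pass without the KO control colon, nor did it pass without KO DSS replicate 2 (-1.21) or the WT DSS array (-1.28). Abca8a is 1 of 5 ABCA genes in a row on chromosome 11. Of its neighbours, Abca8b stood at -0.59 ± 0.19, Abca6 at -0.18 ± 0.12, Abca9 at -0.16 ± 0.16 and Abca5 at -0.12 ± 0.12, none of which passed.

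**Figure D4:**
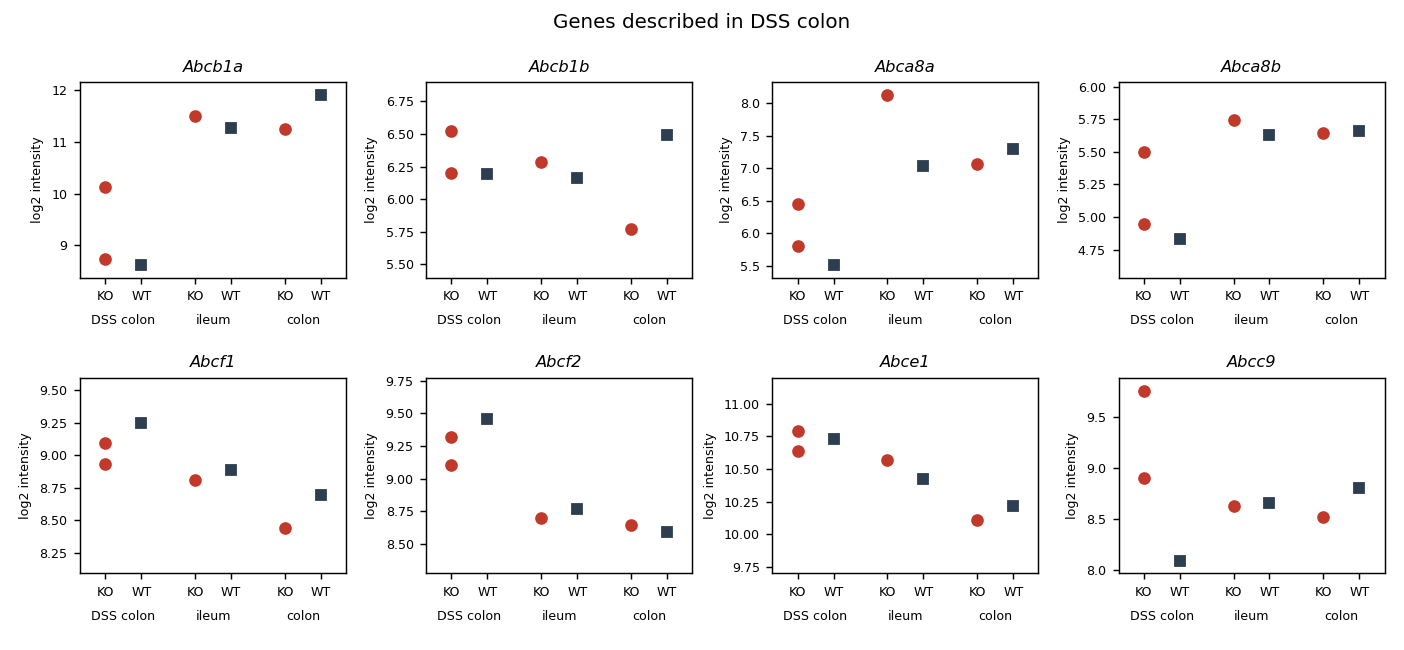
Points give the log2 intensity of each array for 8 members described in DSS colon; red circles are KO and dark squares WT, and axes do not start at 0. Abcb1a and Abca8a are below, and Abcf1, Abcf2 and Abce1 above, both control colon points in all 3 DSS arrays, while Abcb1b overlaps and Abcc9 spreads from 8.09 to 9.76 in DSS colon.

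Markers of the muscle layer moved with these genes. The mean of 12 smooth muscle markers was 10.62 and 9.71 in KO DSS colon and 9.13 in WT DSS colon, against 11.14 in KO and 11.18 in WT control colon, and all 12 had a lower mean in DSS colon, 3 of which passed in limma. Over the DSS arrays Abcb1a, Abca8a and this mean had the same order, highest in KO replicate 1 and lowest in WT. The order was not particular to smooth muscle. It was shared by the marker means of endothelial cells and pericytes (8.48, 7.97 and 7.61) and of adipocytes (7.24, 6.44 and 6.38). Macrophage (8.54, 8.50 and 8.37) and small intestinal enterocyte means (6.75, 6.39 and 6.38) shared it too, but their single genes were mixed. Among macrophage markers Adgre1 followed it (7.31, 7.06 and 6.81) and Csf1r ran the opposite way (8.51, 8.67 and 8.81). Among enterocyte markers Fabp2 followed it (10.68, 7.78 and 7.73) and Anpep ran the opposite way (7.82, 8.01 and 8.53). With the smooth muscle mean as a covariate the difference was -0.93 for Abcb1a and -0.92 for Abca8a, neither of which passed. In that fit 1 member passed, Abcc9. Since the marker mean separates DSS colon from control colon, this fit also removes some of the difference between them. The mean of 8 colonocyte markers was 11.02 and 11.02 in KO DSS and 11.25 in WT DSS colon, against 11.77 in KO and 11.83 in WT control colon, where 7 of 8 had a lower mean in DSS colon and 3 passed. All 6 neutrophil markers rose, with means of 8.27 and 8.56 in KO DSS and 8.90 in WT DSS colon, against 5.90 in KO and 5.71 in WT control colon. The part of the lists other than smooth muscle in the transporter values was not tested.

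Abcg8 was at 6.25 and 6.56 on the KO DSS arrays and 6.40 on the WT DSS array, against 6.93 in KO and 7.01 in WT control colon. The groups did not overlap, and Abcg8 fell by 0.57 ± 0.13 log2 units (adjusted p = 0.0451). This call was lost under 12 of the 17 alternative settings, quantile normalization (adjusted p = 0.0685) among them. Colon arrays alone and leaving out either ileum array are also among them, but these settings give the same fit (-0.559). Abcg5 was at 6.72 and 7.90 on the KO DSS arrays and 7.63 on the WT DSS array, against 8.53 in KO and 8.27 in WT control colon. It lay lower on every DSS array, but KO replicate 1 stood 1.18 below KO replicate 2, and the difference of -0.98 ± 0.34 did not pass (adjusted p = 0.124). Both genes were lower in DSS colon than in either ileum array. Abcg2, at 8.79 and 8.21 in KO DSS and 8.33 in WT DSS colon against 8.68 in KO and 8.80 in WT control colon, did not pass either (-0.30 ± 0.18, adjusted p = 0.370). The cholesterol exporters of macrophages and other cells, Abca1 and Abcg1, did not pass. Abca1 was at 8.54 and 8.01 in KO DSS and 8.15 in WT DSS colon, on both sides of its control colon values (-0.02 ± 0.18, adjusted p = 0.958). Abcg1 was at 8.05 and 8.03 in KO DSS and 8.13 in WT DSS colon, above both controls (0.33 ± 0.13, adjusted p = 0.161).

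None of the conjugate exporters passed between DSS colon and control colon. Abcc3 was at 10.50 and 10.43 in KO DSS and 10.42 in WT DSS colon, between the controls at 10.41 in KO and 10.74 in WT (-0.06 ± 0.21, adjusted p = 0.900). Abcc2 was at 5.54 and 5.32 in KO DSS and 5.40 in WT DSS colon, below the lower quartile like its controls. Abcc1, at 9.22 and 9.30 in KO DSS and 9.26 in WT DSS colon, lay above both controls without passing, and Abcc4, at 8.49 and 8.59 in KO DSS and 8.83 in WT DSS colon, overlapped its controls. Abcd2 was at 6.31 and 6.19 in KO DSS and 6.28 in WT DSS colon, between its control values.

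Of the 4 members without a membrane-spanning part 3 rose. Abce1, which splits ribosomes for recycling, was at 10.79 and 10.64 on the KO DSS arrays and 10.73 on the WT DSS array, against 10.11 in KO and 10.22 in WT control colon, a rise of 0.56 ± 0.11 (adjusted p = 0.0288). Abcf2 was at 9.10 and 9.32 in KO DSS and 9.45 in WT DSS colon, against 8.64 in KO and 8.59 in WT control colon, a rise of 0.69 ± 0.12 (adjusted p = 0.0210). Abcf1, which binds translation initiation factor eIF2, was at 8.94 and 9.09 in KO DSS and 9.25 in WT DSS colon, against 8.44 in KO and 8.69 in WT control colon, a rise of 0.56 ± 0.11 (adjusted p = 0.0263). The groups did not overlap in any of these 3 genes. Between DSS colon and control colon this also held for members that were not called, Abcc1 and Abcd4 among them. How often it held over all genes was not counted. Abcf3 stood at 0.34 ± 0.13 and did not pass (adjusted p = 0.160). Each rise was below 1 log2 unit. None of the 3 passed when 1 of the control colon arrays, KO DSS replicate 2 or the WT DSS array was missing, and Abcf2 did not pass under quantile normalization (adjusted p = 0.0504). With the smooth muscle covariate the values were 0.62 for Abce1, 0.40 for Abcf2 and 0.40 for Abcf1, none of which passed.

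Around the transporters, Tap1 rose by 2.79 ± 0.14 and Tap2 by 1.12 ± 0.10, and Cftr stood at -0.98 ± 0.25 without passing (adjusted p = 0.0556). Of 14 regulators, Nr1h4 rose (1.16 ± 0.17) and the vitamin D receptor Vdr fell (-0.71 ± 0.12). Of 7 bile acid genes Slc51b rose (2.53 ± 0.19), and of 13 sterol genes Mylip fell (-0.69 ± 0.12). Of 11 drug-metabolising enzymes 2 fell, Sult1a1 (-1.89 ± 0.17) and Gstm1 (-1.55 ± 0.27). Of 6 iron-sulphur and haem genes 3 rose, Alas1 (1.12 ± 0.17), Slc25a37 (0.60 ± 0.14) and Glrx5 (0.49 ± 0.10). Of 6 peroxisomal partners Pex3 fell (-0.56 ± 0.13), and neither of the potassium channel pore genes Kcnj8 and Kcnj11 passed.

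KO and WT mice were compared over ileum, control colon and DSS colon. In limma 0 of 48 members passed, against 0.00502% of all genes, and 1 of 48 (and 720 of all genes) had an unadjusted p under 0.05, Abca5 (0.27 ± 0.10, adjusted p = 0.989). Fitted differences ran from -0.36 for Abcc3 (± 0.18) to 0.50 for Abca8a (± 0.26), with a median of 0.03 over the members. In DSS colon alone 0 of 48 members passed, as did 0% of all genes, with 1 member and 776 of all genes at an unadjusted p under 0.05. In the test of whether the KO difference in DSS colon departed from that in the controls, 0 of 48 members and 0% of all genes passed, with 3 members (Abcc3, Abcc9 and Abcg3) and 639 of all genes at an unadjusted p under 0.05. Atg4b was the only gene of 19938 that passed over all conditions.

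Abcc9 had the largest fitted KO difference of the family in DSS colon. It encodes the sulfonylurea receptor subunit of potassium channels in smooth muscle and pericytes. It was at 9.76 and 8.90 on the KO DSS arrays, against 8.09 on the WT DSS array. In the controls it was at 8.63 in KO and 8.66 in WT ileum and at 8.52 in KO and 8.80 in WT colon. The difference in DSS colon was 1.24 ± 0.35 with an adjusted p of 1. Without KO DSS replicate 2 it was 1.67 (adjusted p = 0.00195), and Abcb1a passed too (adjusted p = 0.0132), each then resting on 1 KO array against 1 WT array. The pore gene Kcnj8 was at 9.97 and 9.19 in KO DSS against 8.81 in WT DSS colon, and its difference was 0.77 ± 0.32 (adjusted p = 1). The smooth muscle mean given above was also higher on both KO DSS arrays than on the WT one. So was the mean of 6 endothelial and pericyte markers, at 8.48 and 7.97 in KO DSS against 7.61 in WT DSS colon. The part of either list in the KO difference of Abcc9 was not tested.

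In ileum, 3 of 48 members differed by more than 1 log2 unit between the KO and the WT array, against 0.888% of all genes, and in control colon none did, against 0.461%. Abca12, a lipid transporter of skin keratinocytes, was at 5.83 in KO and 8.10 in WT ileum, and Abca8a and Abcc2 were higher in KO ileum by 1.09 and 1.40. These compare 1 array with 1 array and carry no test. Abca12 also separated the KO DSS replicates, with 7.08 in replicate 1 and 5.40 in replicate 2, against 5.49 in WT DSS colon. Its values in control colon were 5.56 in KO and 5.27 in WT. Abca12 had the widest range of the ABCA subfamily, 2.84, and passed in none of the 5 comparisons.

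**Figure D5:**
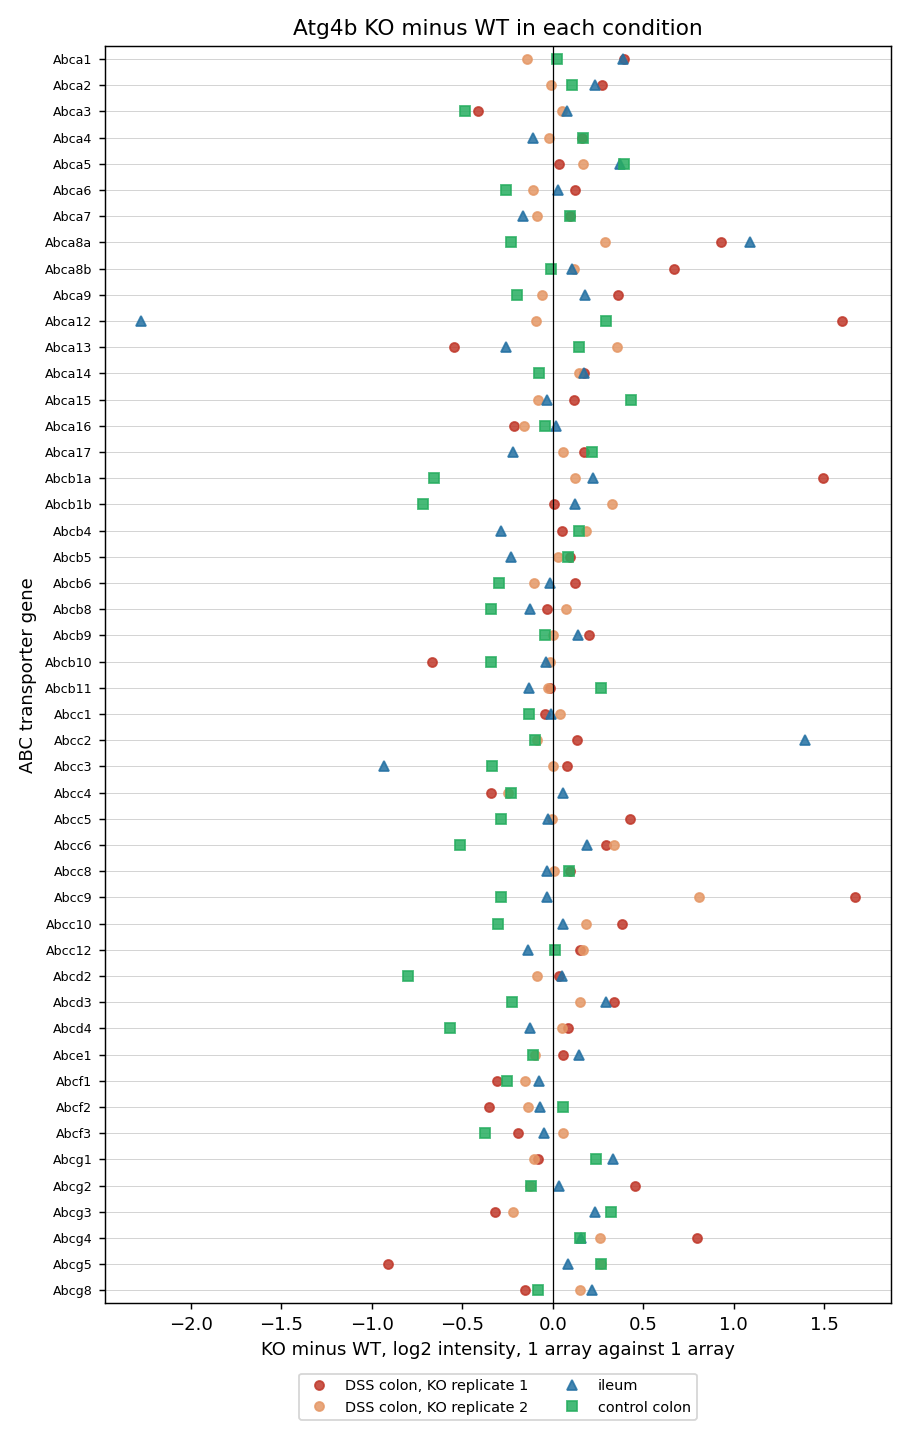
Each point is the log2 intensity of 1 KO array minus that of the WT array of the same condition, for each of the 48 genes: DSS colon (circles, 1 per KO replicate), ileum (triangles) and control colon (squares). Most points lie near 0; Abca12 and Abcc2 stand out in ileum, and Abcc9, Abca12 and Abcb1a in DSS colon for KO replicate 1.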

How the data were processed

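Total RNA was biotin-labelled and hybridised to 1 Affymetrix array per sample, per the labels' protocols. The authors deposited 1 linear intensity per probe set and array; the sources used here do not state its summarisation or normalization, and log2 was taken here. Of 35512 probe sets, 21789 have 1 gene symbol in the platform annotation, 1621 several and 12102 none here. The probe set with the highest mean stood for each of 19938 genes; all 48 member symbols matched RefSeq.

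limma 3.58.1 in R 4.3.3 (lmFit, eBayes, Benjamini-Hochberg over all genes, threshold 0.05) was fitted to all 7 arrays with condition and genotype (3 residual degrees of freedom), and with the genotype effect split between DSS colon and controls (2). The scripts were tested on simulated data. Members and lists were chosen with earlier results of these data known. Named are members that passed in any comparison, the 2 with the widest range in each subfamily, fixed pairs and efflux pumps; others were named after their values were seen. The labels give no batch. Promoters are RefSeq's (GRCm38.p6; 38 members have one). Alternatives were other normalizations, probe set choices, variance models, a 6-group model, colon arrays alone, a smooth muscle covariate and leaving out each array. Figures used matplotlib 3.10.9.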

Additional observations from a re-analysis of the deposited data

Results flagged for a closer look

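Over all 48 members, some differences ran in opposite directions by more than 0.2 log2 units in each of 2 groups under the same contrast, a limit chosen after the values were seen. How many of all genes were opposed under this limit was not counted. Over all genes the median size of a single-array DSS difference was near the limit, 0.19 in WT and 0.19 and 0.23 in KO. For the DSS difference, KO and WT colon were opposed in 4 genes. Abcc9 stood at 1.24 and 0.38 in KO, against -0.71 in WT. Abcb1b stood at 0.43 and 0.75 in KO, against -0.30 in WT. Abcd2 stood at 0.46 and 0.34 in KO, against -0.37 in WT. Abcg3, a gene of the ABCG subfamily, stood at -0.36 and -0.25 in KO, against 0.28 in WT. The limma test of whether the KO difference in DSS colon departs from that in ileum and control colon together called none of these genes (adjusted p of 1 for each), and at an unadjusted p under 0.05 it found Abcc9 and Abcg3.

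For the KO minus WT difference, DSS colon and control colon were opposed in Abcc9 (1.67 and 0.81 in DSS colon, against -0.29 in control colon), Abca8a (0.93 and 0.29, against -0.23), Abcc6 (0.29 and 0.34, against -0.51) and Abcg3 (-0.32 and -0.22, against 0.32). DSS colon and ileum were opposed in Abcg3, which stood at 0.23 in ileum. Ileum and control colon, 1 array against 1 array in each, were opposed in Abca12 (-2.28 in ileum and 0.29 in control colon), Abca17 (-0.22 and 0.22), Abca8a (1.09 and -0.23), Abcb1a (0.22 and -0.66) and Abcd3 (0.30 and -0.22); the difference between these conditions was not tested.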

How the results depend on the processing

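The count of members that passed stayed within 1.5 times of 6 for DSS and of 11 for tissue under quantile normalization (4 and 9), centring, leaving out dim genes, averaging or testing all probe sets, a trended robust fit (4 and 10) and, for DSS, colon arrays alone (5). It was 0 for DSS and 1 for tissue without moderation of variances, where Abcg8 remained, and 0 and 4 in the model with 6 groups, where Abcc2, Abcd2, Abcg2 and Abcg8 remained; these leave fewer degrees of freedom. With the smooth muscle covariate 1 member passed for DSS. Leaving out each array gave 0 to 12 for DSS, 5 to 12 for tissue, 0 to 0 for genotype, and 0 to 2 both for the KO difference within DSS colon and for its interaction with DSS. Those last comparisons could not be fitted without the WT DSS array. None of the 17 called differences changed sign under any setting run, and Abcg8 between ileum and colon passed in all 15. Over all genes the tissue count was 176 without moderation and 764 with 6 groups, against 1826, and ranged from 660 to 2418 when arrays were left out; the KO count in DSS colon, 0 as reported, was 10 with a trended robust fit and up to 538 without KO DSS replicate 2. The DSS count was 7 without moderation, 297 with 6 groups and 225 with the covariate, against 2120, and ranged from 183 to 3549 when arrays were left out. No paired analysis was possible because the labels number only the KO DSS arrays. Low signal limits Abcc2 in colon and the 6 members below the lower quartile on every array. Only 31 of 48 members lay above that quartile on all 7 arrays. Among the called genes, Abca8a lay below it on the WT DSS array (5.51) and Abcd2 on the KO control colon array (5.85). Abcb1b, which was not called, lay below it on the KO control colon array (5.77). Differences that rest on such values may be understated.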
